A study of Mus musculus with 24 samples.

Results

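Excision repair was examined in the genes of 3 families of conjugation enzymes: the UDP-glucuronosyltransferases (Ugt), the cytosolic sulfotransferases (Sult) and the glutathione S-transferases (Gst). The members were the gene rows of the repair tables whose only symbol was of the form Ugt1a, Ugt2a, Ugt2b or Ugt3a with a number, began with Sult and a number, or was of the form Gst with a class letter (a, k, m, o, p, t or z) and a number. This gave 52 of the 24203 rows with 1 symbol: 13 Ugt, 19 Sult and 20 Gst genes. The rule reads symbols only and no measured value enters it, but it was set with earlier results of these data known. All 52 symbols were found among the RefSeq genes of GRCm38.p6, and 14 of the genes lie on the plus strand.

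Conjugation enzymes attach a polar group to steroids, bile acids, bilirubin, drugs and reactive products of metabolism, which makes them soluble and ready for export. Ugt enzymes transfer a sugar, most often glucuronic acid from UDP-glucuronate. Sult enzymes transfer sulfate from the donor PAPS, and Gst enzymes transfer glutathione, a thiol that also binds platinum drugs. Liver is rich in all of them, kidney makes its own selection, and several Ugt, Sult and Gst genes stand in tandem arrays of near copies.

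The measurements come from XR-seq, in which the short DNA pieces cut out by nucleotide excision repair are sequenced. All libraries were of wild-type C57BL/6J females aged 6 months, housed with 12 h light and 12 h dark, that had been given cisplatin at 10 mg/kg into the peritoneum 2 h before kidney and liver were taken. Collection was at 6 zeitgeber times (ZT, counted in hours from lights on), namely 0, 4, 8, 12, 16 and 20, with 2 libraries per tissue and time, which makes 12 kidney and 12 liver libraries. There were no untreated animals, and the design text and treatment protocol name cisplatin while the extraction protocol names antibodies against other lesions. The labels do not tell if the pair of libraries at a time is of different mice, so p-values measure the spread between libraries only, and that spread may be technical.

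Library totals were 8718055 to 33716763 reads in kidney and 12917058 to 28244795 in liver. Reads were counted on the transcribed strand (TS), where a stalled RNA polymerase calls the repair machinery, and on the non-transcribed strand (NTS). The mean number of TS reads of a member ranged from 3.42 to 2482 in kidney libraries and was 8.25 to 5614 in liver libraries. Each row covers a gene from start to end, exons and introns alike. Levels are given in RPKM, reads scaled to the length of the gene and to the total of the library. The libraries of ZT0 stood apart: their counts differed by a chi-square per gene of 15.1 in kidney and 27.3 in liver, against 2.99 to 5.92 for the pairs of the other times. Tissue labels were checked on markers: all 8 hepatocyte genes had more TS reads in liver, and all 8 proximal tubule and all 5 genes of the loop and distal tubule had more in kidney. The hepatocyte list summed to 2.03 to 3.40 RPKM in kidney libraries and 14.5 to 22.4 in liver libraries, and the proximal tubule list to 10.0 to 14.0 and 0.226 to 0.752. In whole tissue, fewer cells that transcribe a gene and less repair per cell cannot be told apart.

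In TS repair the conjugation genes leaned to the liver. Of the 52 members 34 were higher in liver and 13 higher in kidney (edgeR quasi-likelihood test, Benjamini-Hochberg adjusted p under 0.05), where the share over all 19625 genes tested was 31.7% higher in liver and 42.2% higher in kidney. The median log2 difference of kidney minus liver was -0.79 over the members and 0.07 over all genes. In 22 members every liver library lay above every kidney library, and in 7 every kidney library lay above. The same held for 11.2% and 15.7% of all genes. The 13 Ugt genes summed to a median of 2.81 RPKM in kidney (2.51 to 3.25 over 12 libraries) and 9.65 in liver (6.73 to 11.3). The Sult genes summed to 5.14 (4.39 to 5.93) and 9.60 (7.95 to 10.1), and neither of these sums overlapped between the tissues. The 20 Gst genes summed to 34.9 (31.5 to 39.2) and 40.6 (35.4 to 44.8), which overlapped.

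**Figure D1:**
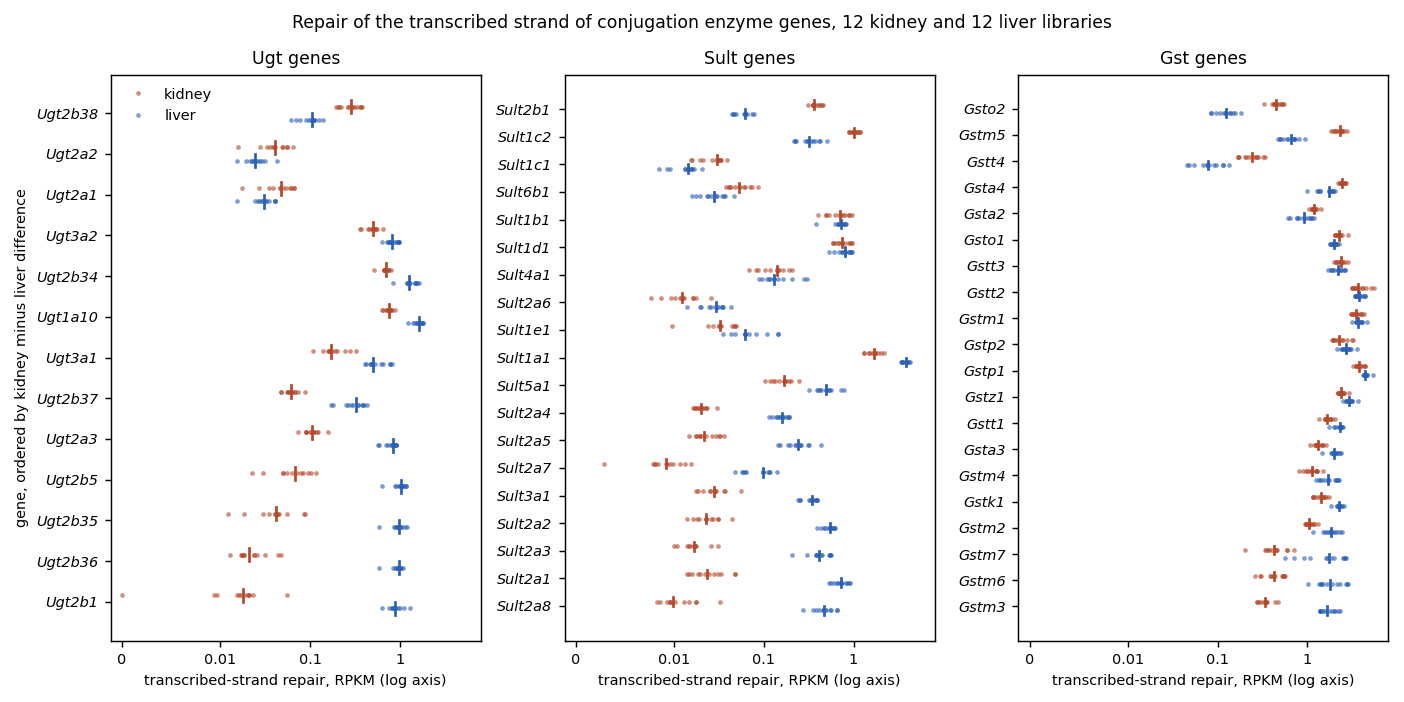
TS repair of the 52 genes in RPKM on a log axis, with kidney in red and liver in blue; dots are libraries (12 per tissue), short bars are medians, and the library at 0 is drawn at the left edge. Ugt2b and Sult2a genes have liver values far above kidney ones, while the tissues lie close together for most Gst genes.

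All 13 Ugt genes differed between the tissues, 10 of them higher in liver. The widest gap was in Ugt2b1 (chr5:86916639-86926503, minus strand of mm10), a steroid and drug glucuronosyltransferase. Its TS repair in kidney was 0 in 1 library, with a median of 0.0181 RPKM and a highest value of 0.0548, against 0.636, 0.881 and 1.30 RPKM (lowest, median, highest) in liver. Liver was 59.2-fold higher (log2 kidney minus liver -5.89 ± 0.20 SE), on 41 kidney reads in all. Ugt2b36 had 0.0129, 0.0210 and 0.0474 RPKM in kidney and 0.581, 0.972 and 1.08 in liver, a 41.4-fold difference (log2 -5.37 ± 0.15). Ugt2b35 (log2 -4.55 ± 0.14) and Ugt2b5 (log2 -4.06 ± 0.12) were also higher in every liver library. Smaller gaps were seen in Ugt2a3 (log2 -2.94 ± 0.12), Ugt2b37 (-2.37 ± 0.16), Ugt3a1 (-1.65 ± 0.13), which uses N-acetylglucosamine as its sugar, Ugt2b34 (-0.99 ± 0.08) and Ugt3a2 (-0.83 ± 0.09).

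Only 1 row carries a single Ugt1a symbol, Ugt1a10 at chr1:88055411-88220002 on the plus strand of mm10. It spans the whole Ugt1a locus, whose products include the bilirubin-conjugating enzyme, and it overlaps a row with 2 symbols, Ugt1a2 and Ugt1a6a, and Dnajb3 on the opposite strand. Its value therefore stands for the locus rather than for 1 enzyme. Kidney libraries had 0.639, 0.750 and 0.887 RPKM (lowest, median, highest) and liver libraries 1.22, 1.65 and 1.81, so that liver was 2.22-fold higher (log2 -1.15 ± 0.05) with no overlap. The overlapping row, outside the count of members, gave medians of 0.912 in kidney and 1.85 in liver.

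Ugt2b38 was the only Ugt2b gene higher in kidney. It had 0.193, 0.283 and 0.376 RPKM in kidney and 0.0615, 0.105 and 0.139 in liver, with every kidney library above every liver library (2.66-fold, log2 1.41 ± 0.16). Ugt2a2 (log2 0.68 ± 0.18) and Ugt2a1 (log2 0.55 ± 0.18), which encode enzymes of the olfactory epithelium and share most of their span, were the other Ugt genes higher in kidney. Their libraries overlapped between the tissues, all of them between 0.0152 and 0.0662 RPKM, and Ugt2a1 lost its call (adjusted p = 0.116) without the kidney ZT20 replicate 2 library.

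The start-site windows of 4 Ugt2b genes are shown: those of Ugt2b5, Ugt2b37 and Ugt2b38 are close in sequence while repair of the genes differed in direction, and that of Ugt2b36, a gene with a wide liver excess, is more distant. They run from 250 bases before to 50 bases after the RefSeq start site in GRCm38.p6, all on the minus strand: Ugt2b5 at chr5:87140291-87140590, Ugt2b36 at chr5:87092506-87092805, Ugt2b37 at chr5:87254739-87255038 and Ugt2b38 at chr5:87424154-87424453. Capitals mark AGGTCA, the half-site bound by nuclear receptors.
Ugt2b5: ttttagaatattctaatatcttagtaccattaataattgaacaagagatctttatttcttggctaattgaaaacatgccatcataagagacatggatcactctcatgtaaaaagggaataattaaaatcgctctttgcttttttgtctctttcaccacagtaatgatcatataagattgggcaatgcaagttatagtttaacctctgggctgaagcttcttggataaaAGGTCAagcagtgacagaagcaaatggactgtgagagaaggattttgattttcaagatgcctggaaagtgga
Ugt2b36: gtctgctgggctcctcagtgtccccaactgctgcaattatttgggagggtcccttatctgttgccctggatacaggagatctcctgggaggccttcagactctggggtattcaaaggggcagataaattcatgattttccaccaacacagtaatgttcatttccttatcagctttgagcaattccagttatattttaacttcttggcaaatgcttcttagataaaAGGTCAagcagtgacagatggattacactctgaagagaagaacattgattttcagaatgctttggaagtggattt
Ugt2b37: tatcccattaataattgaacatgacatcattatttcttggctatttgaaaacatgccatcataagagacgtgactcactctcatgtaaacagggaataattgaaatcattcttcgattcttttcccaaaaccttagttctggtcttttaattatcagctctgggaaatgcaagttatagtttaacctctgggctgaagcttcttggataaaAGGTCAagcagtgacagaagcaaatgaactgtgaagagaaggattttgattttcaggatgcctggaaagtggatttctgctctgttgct
Ugt2b38: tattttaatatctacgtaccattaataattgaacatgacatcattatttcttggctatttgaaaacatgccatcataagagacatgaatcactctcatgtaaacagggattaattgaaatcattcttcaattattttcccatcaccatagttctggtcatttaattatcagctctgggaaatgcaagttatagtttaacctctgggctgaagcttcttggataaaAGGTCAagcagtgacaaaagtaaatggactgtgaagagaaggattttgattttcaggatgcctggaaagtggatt
The windows of Ugt2b37, higher in liver, and Ugt2b38, higher in kidney, were identical at 273 of 314 aligned positions (86.9%), and 43.6% of their runs of 26 bases were shared. Ugt2b38 and Ugt2b5 were 84.2% identical, and Ugt2b37 and Ugt2b5 76.2%. Ugt2b36 was 60.5% to 63.4% identical to the other 3 and shared no run of 26 bases with another member. All 4 windows hold AGGTCA on the printed strand, its first base 22 bases before the start site in Ugt2b5, 25 before it in Ugt2b36 and Ugt2b38, and 39 before it in Ugt2b37. AGGTCA was found on either strand in 8 of the 45 members with a window and in 16.0% of all 27025 windows. The same search found the D-box TTANGTAA in 2 members, Ugt2b1 and Sult1a1 (2.34% of all windows), the antioxidant element TGACNNNGC in 2, Gsta3 and Gstm5 (12.5%), and the E-box CACGTG in none (7.24%). Reads as short as excised oligomers can match more than 1 such near copy, and how the authors assigned them is not given in the sources used here, so the values of single Ugt2b, Sult2a, Gstm and Gstp genes are uncertain to that degree.

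Of the 19 Sult genes 12 were higher in liver and 4 in kidney. All 8 Sult2a genes, which sulfate hydroxysteroids and bile acids, were higher in liver. Sult2a8 had 0.00646, 0.00968 and 0.0324 RPKM in kidney (lowest, median, highest) and 0.273, 0.470 and 0.655 in liver, a 41.9-fold gap (log2 -5.39 ± 0.19). Sult2a1 had 0.0138, 0.0233 and 0.0482 RPKM in kidney and 0.536, 0.726 and 0.914 in liver (31.4-fold, log2 -4.97 ± 0.15). Sult2a3 (log2 -4.76 ± 0.19), Sult2a2 (-4.53 ± 0.13), Sult2a7 (-3.50 ± 0.22), Sult2a5 (-3.42 ± 0.18) and Sult2a4 (-3.01 ± 0.10) likewise showed no overlap between the tissues. Sult2a6 had the smallest gap of these genes (log2 -1.14 ± 0.18), and its libraries overlapped.

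Sult3a1 (log2 -3.58 ± 0.15), an amine sulfotransferase, Sult5a1 (-1.70 ± 0.14) and Sult1a1 (-1.23 ± 0.06), the main phenol sulfotransferase, were also higher in every liver library. Sult1a1 had the highest level of the family in both tissues, at 1.32, 1.71 and 2.16 RPKM in kidney and 3.39, 3.82 and 4.26 in liver. Sult1e1, the estrogen sulfotransferase, was low in both tissues and overlapped between them (log2 -1.20 ± 0.22). Sult2b1 (chr7:45729983-45759555, minus strand), the cholesterol sulfotransferase, had the largest kidney excess of all members. Its kidney libraries held 0.308, 0.362 and 0.453 RPKM and its liver libraries 0.0438, 0.0611 and 0.0785 (6.26-fold, log2 2.65 ± 0.08). Sult1c2 had 0.882, 1.01 and 1.18 RPKM in kidney and 0.218, 0.321 and 0.504 in liver (3.04-fold, log2 1.60 ± 0.10). Sult1c1 (log2 0.91 ± 0.20) and Sult6b1 (0.91 ± 0.16) were higher in kidney with overlapping libraries. Sult1b1, a thyroid hormone sulfotransferase, Sult1d1 and Sult4a1 did not pass, with log2 differences of -0.12 ± 0.11, -0.14 ± 0.10 and -0.26 ± 0.21.

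The Gst genes were nearer to each other across tissues, with a median log2 difference of -0.28. Of 20 genes 12 were higher in liver and 6 in kidney. Gstp1, of the pi class, had the highest median of all members in both tissues, 3.73 RPKM in kidney (3.21 to 4.43) and 4.42 in liver (4.22 to 5.36), a difference of log2 -0.29 ± 0.06 with overlapping libraries. The liver excess was largest in 3 genes of the mu class. Gstm3 had 0.274, 0.340 and 0.466 RPKM in kidney and 1.37, 1.67 and 2.29 in liver (5.25-fold, log2 -2.39 ± 0.10). Gstm6 followed (4.57-fold, log2 -2.19 ± 0.14), also without overlap, and then Gstm7 (3.84-fold, log2 -1.94 ± 0.14), whose libraries overlapped. Gstm2 (-0.82 ± 0.09), Gstk1 (-0.75 ± 0.08), the kappa-class enzyme of mitochondria and peroxisomes, and Gstm4 (-0.69 ± 0.08) had smaller gaps.

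Higher in kidney were Gsto2, of the omega class (3.50-fold, log2 1.81 ± 0.10), with 0.326, 0.442 and 0.542 RPKM against 0.0835, 0.123 and 0.181, and Gstm5 (3.38-fold, log2 1.76 ± 0.09), with 1.83, 2.28 and 2.74 against 0.468, 0.649 and 0.929. Gstm5 overlaps a gene on the opposite strand, so its reads cannot be assigned with certainty. Gstt4 (2.70-fold, log2 1.43 ± 0.15) and Gsta4 (1.48-fold, log2 0.56 ± 0.06), which clears the lipid peroxidation product hydroxynonenal, also had every kidney library above every liver library. Gsta2 (log2 0.35 ± 0.07) and Gsto1 (0.14 ± 0.05) passed with overlapping libraries. The theta-class genes Gstt2 (-0.04 ± 0.06) and Gstt3 (0.06 ± 0.06) did not pass.

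Along the chromosomes the large differences lay side by side. The 13 Ugt2 and Sult1 genes of chromosome 5 span 702 kb. From Ugt2b34 to Ugt2a3 the first 7 in coordinate order were all higher in liver, the next 3 (Ugt2b38, Ugt2a1 and Ugt2a2) were higher in kidney, and of the last 3 Sult1e1 was higher in liver while Sult1b1 and Sult1d1 did not pass. The 8 Sult2a genes occupy 869 kb of chromosome 7, with Sult2a6 at log2 -1.14 between Sult2a3 at -4.76 and Sult2a8 at -5.39. The 7 Gstm genes lie within 149 kb of chromosome 3, where Gstm5 at the low-coordinate end was higher in kidney and its 6 neighbours were higher in liver.

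**Figure D2:**
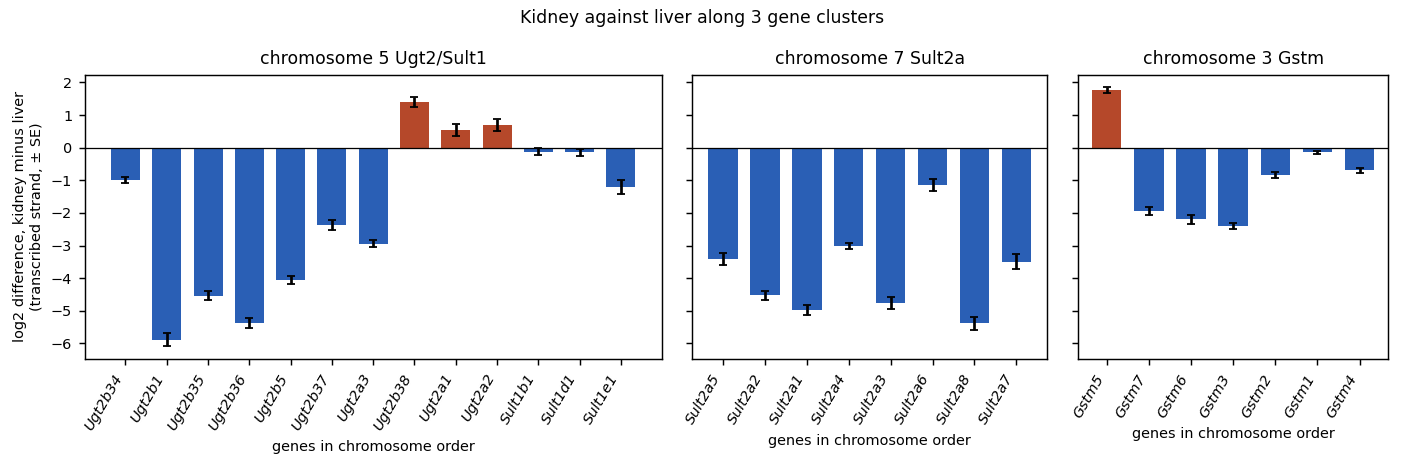
Log2 difference of TS repair, kidney minus liver, for the genes of 3 clusters in chromosome order; bars are estimates over 12 kidney and 12 liver libraries, whiskers are SE, red is higher in kidney and blue higher in liver. The Sult2a bars all point to liver, Gstm5 alone of the Gstm genes points to kidney, and in the chromosome 5 cluster Ugt2b38, Ugt2a1 and Ugt2a2 do.

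On the NTS 33 members were higher in liver and 7 in kidney, against 32.2% and 34.0% of all 19055 genes. Whether transcription of the opposite strand adds to NTS repair was not tested. The median log2 difference was -0.55 over the members and 0.02 over all genes. All 36 members called on both strands had the same direction, and 25 of these had the larger difference on the TS. Of the 9870 genes called on both strands 78.7% had the same direction and 54.4% the larger difference on the TS. Sult2a1 differed nearly as much on the NTS (log2 -4.71 ± 0.15) as on the TS, whereas for Ugt2b1 the NTS difference was -2.83 ± 0.20 and for Ugt2b36 -2.89 ± 0.17. Sult2a4 (-3.92 ± 0.16) and Gsta2 (1.64 ± 0.09) differed more on the NTS than on the TS. Scaling by library totals moved the NTS median of all genes from 0.02 to 0.32, and 26 members were then higher in liver and 13 in kidney, against 17.3% and 53.7% of all genes.

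Within each tissue most members carried more reads on the TS than on the NTS. In kidney 45 of 51 members tested (Sult2a7 had too few reads) were higher on the TS and 3 lower, against 75.6% and 11.4% of all genes, with a median log2 ratio of 1.78 over the members and 2.19 over all genes. In liver 46 of 52 were higher and 2 lower, against 73.4% and 11.8%, with medians of 2.86 and 2.24. These directions are relative to 1 library size for both strands. When each strand was scaled on its own, which sets the typical gene near 0, 17 kidney and 32 liver members stayed higher and 27 and 15 were lower, against 46.2% and 47.6% of all genes higher and 48.1% and 46.8% lower.

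All 20 Gst genes were higher on the TS in both tissues. Gsta4 (chr9:78191966-78209349, plus strand) had the largest ratio of the members in either tissue, log2 3.89 ± 0.09 in kidney and 4.79 ± 0.10 in liver. Its TS values were 2.19, 2.45 and 2.70 RPKM in kidney and its NTS values 0.0881, 0.165 and 0.254, and in liver the TS held 0.984, 1.75 and 2.04 RPKM against 0.0327, 0.0546 and 0.0837. Gsto1 (log2 3.80 ± 0.11) and Gsta3 (3.76 ± 0.07) followed in kidney, and Gstp2 (4.56 ± 0.18) and Ugt3a2 (4.14 ± 0.09) in liver. At the other end, among members with a mean of at least 20 reads over both strands, stood Sult6b1. Its NTS held more reads in kidney (log2 ratio -0.78 ± 0.12) as in liver (-1.25 ± 0.13). Its TS values were 0.0380, 0.0533 and 0.0861 RPKM in kidney and its NTS values 0.0516, 0.0962 and 0.130, so the strands overlapped there. In liver they did not, with a highest TS value of 0.0464 RPKM and a lowest NTS value of 0.0575.

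Sult1a1 in kidney (log2 -0.31 ± 0.10), Ugt2b1 in kidney (-0.85 ± 0.30) and Sult2b1 in liver (-0.78 ± 0.11) were also lower on the TS. The NTS of Sult1a1 was high in both tissues, at 1.45, 1.99 and 2.61 RPKM in kidney and 1.43, 2.11 and 2.71 in liver. Sult1e1 in kidney (-0.27 ± 0.17) and Sult2a6 in liver (0.09 ± 0.17) did not pass. Nor did Sult2a4 in liver (0.10 ± 0.11), although its liver level stood 8.05-fold above that in kidney on the TS.

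The TS/NTS ratio differed between the tissues in 37 members by the interaction of strand and tissue, 28 with the higher ratio in liver and 9 in kidney, against 35.1% and 21.8% of all 20502 genes. The 4 largest differences of the log2 ratio, kidney minus liver, were in genes high in liver: Ugt2b1 (-3.27 ± 0.30), Sult3a1 (-3.05 ± 0.20), Sult2a3 (-2.82 ± 0.19) and Ugt2b36 (-2.71 ± 0.26). Sult3a1 had equal medians of 0.0282 RPKM on both strands in kidney, and 0.341 on the TS against 0.0432 on the NTS in liver. Gstm7 (-2.29 ± 0.28) was the Gst gene with the widest gap. The ratio was higher in kidney in Sult2b1 (1.24 ± 0.12), Gsto2 (1.11 ± 0.15), Gstt4 (1.10 ± 0.22), Ugt2b38 (0.86 ± 0.28) and Gstm5 (0.70 ± 0.24). The TS level and the ratio share the same TS reads, so agreement of their directions is partly built in. The split by direction that follows was not made over all genes. Of the 13 members with more TS repair in kidney 6 had the higher ratio there, 5 did not pass, and Gsta2 (-1.52 ± 0.12) and Gsta4 (-0.90 ± 0.15) had the higher ratio in liver. Of the 34 members with more TS repair in liver 25 had the higher ratio there and 6 did not pass, while Sult2a4 (0.64 ± 0.19), Sult2a6 (0.77 ± 0.30) and Gsta3 (0.32 ± 0.12) had the higher ratio in kidney. Sult2a6 lost its call without either kidney ZT12 library, where the highest adjusted p was 0.0907, and with DESeq2 (adjusted p = 0.0605).

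**Figure D3:**
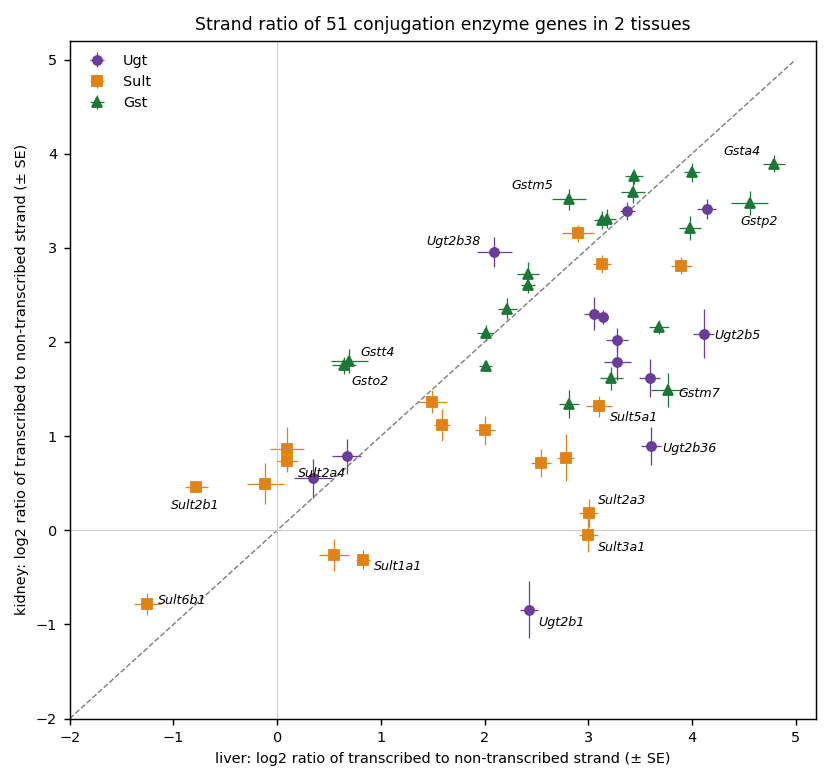
Log2 ratio of TS to NTS reads in liver (horizontal axis) and kidney (vertical axis) for 51 genes, with SE bars over 12 libraries per tissue; the dashed line marks equal ratios. Ugt2b1, Sult3a1 and Sult2a3 lie far below the line, and Sult2b1, Gsto2 and Gstt4 above it.

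Rhythms over the day were fitted to TS reads as a cosine with a period of 24 h. The amplitude is that of log2 reads from mean to peak. In kidney 5 of 50 members tested (Sult2a7 and Ugt2b1 had too few reads) were called rhythmic (adjusted p under 0.05), against 15.0% of 19207 genes, and the median amplitude was 0.18 over the members and 0.13 over all genes. In liver 5 of 52 were called, against 16.6% of 18584 genes, with medians of 0.15 and 0.14. The shares of 10.0% in kidney and 9.62% in liver rest on 5 calls each, and their distance from the share over all genes was not tested. Replicate numbers pair the kidney libraries, and with the replicate block 11 of 50 kidney members were called, against 25.4% of all genes. The kidney amplitudes and adjusted p-values below are from the fit without this block, except where the block is named.

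Gstt2 (chr10:75831845-75834881, minus strand), a theta-class transferase, had the lowest adjusted p in kidney (0.0105 by edgeR), with an amplitude of 0.29 ± 0.06 and a fitted peak at ZT 7.2. Its 2 libraries had 3.53 and 3.18 RPKM at ZT0, 5.10 and 4.11 at ZT4, 5.49 and 4.50 at ZT8, 3.78 and 4.13 at ZT12, 3.40 and 3.15 at ZT16, and 3.41 and 3.19 at ZT20. Values at ZT4 and ZT8 lay above those at ZT0, ZT16 and ZT20 in both libraries. Gstm1 peaked at a like hour (ZT 6.2, amplitude 0.18 ± 0.04), with 4.28 and 4.01 RPKM at ZT8 and 3.03 and 3.04 at ZT16. Sult1b1 (0.38 ± 0.10, peak at ZT 9.8) had 0.491 and 0.405 RPKM at ZT0, its lowest time, and 0.957 and 0.732 at ZT12. Gstm6 (0.39 ± 0.10, peak at ZT 23.2) had 0.533 and 0.561 RPKM at ZT20 and 0.262 and 0.380 at ZT8. The Ugt1a10 row (0.17 ± 0.04, peak at ZT 19.6) ran from 0.653 and 0.639 at ZT8 to 0.817 and 0.887 at ZT20.

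The kidney calls were sensitive. With each library's trend over gene length removed, Gstm6 and Ugt2b5 were called, and Gstt2 (adjusted p = 0.141), Gstm1 (0.327), Ugt1a10 (0.300) and Sult1b1 (0.0546) were not. The share over all genes was then 9.44%. Gstm6 itself lost its call in 11 of the 12 fits that left a library out (adjusted p up to 0.113) and in the tables drawn down to a fixed depth (0.121). Ugt1a10 lost it in 5 of the fits that left a library out, Sult1b1 in 3, Gstm1 in 2 and Gstt2 in 1. In the drawn-down tables Sult1b1 also lost its call (edgeR adjusted p = 0.0546), and Gstt2 and Gstm1 kept theirs. The count of 5 became 0 without the ZT8 replicate 1 library, 2 without ZT8 replicate 2, 3 without ZT4 replicate 2, ZT12 replicate 1 or either ZT20 library, and 8 without ZT0 replicate 2; it stayed at 5 without ZT0 replicate 1. The share over all genes moved as well, from 15.0% to 6.77% without ZT8 replicate 1, 4.66% without ZT8 replicate 2 and 20.1% without ZT0 replicate 2. The members added under the replicate block were Gsta3, Gstt1, Ugt3a2, Ugt2b5, Sult1d1 and Sult5a1. Ugt2b5 had the largest amplitude of these (0.61, peak at ZT 19.1), with 0.117 and 0.0959 RPKM at ZT20 and 0.0224 and 0.0301 at ZT4.

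In liver Gstm7 (chr3:107926334-107931745, minus strand), of the mu class, had the largest amplitude, 0.90 ± 0.15, a 3.49-fold swing from trough to peak at ZT 21.0 (edgeR adjusted p = 0.00483). Its 2 libraries had 1.63 and 2.71 RPKM at ZT0, 1.65 and 1.99 at ZT4, 0.705 and 0.569 at ZT8, 0.908 and 1.08 at ZT12, 1.84 and 2.64 at ZT16, and 2.54 and 2.49 at ZT20. The 4 libraries of ZT8 and ZT12 were the lowest of the 12. Gstm7 was called with every single library left out. Ugt3a1 peaked at the same hour (0.44 ± 0.07, ZT 21.1), with 0.775 and 0.777 RPKM at ZT20 and 0.417 and 0.482 at ZT12, and it also stayed called with each library left out. Gstm4 (0.36 ± 0.08, peak at ZT 20.9) had 2.09 and 2.21 RPKM at ZT20 and 1.25 and 1.35 at ZT8. It lost its call without either ZT8 library or ZT20 replicate 2 (adjusted p up to 0.0521).

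Sult1e1 peaked in the opposite part of the day (0.65 ± 0.17, ZT 10.1), at 0.144 and 0.108 RPKM at ZT12 and 0.0430 and 0.0475 at ZT20, on a mean of 25.2 reads per library. Gsta4 (0.33 ± 0.08, peak at ZT 14.8) had 1.95 and 1.94 RPKM at ZT12 and 0.984 and 1.27 at ZT4. Both lost the call in 9 of the 12 fits that left a library out, with adjusted p up to 0.144 and 0.0934. The liver count of 5 became 8 without ZT0 replicate 1, 6 without ZT0 replicate 2, 2 without ZT20 replicate 2, and 3 without either library of ZT4, ZT8 or ZT12 or without ZT16 replicate 1 or ZT20 replicate 1. The share over all genes was 23.8% without ZT0 replicate 1 and 8.58% to 17.6% in the other 11 fits. When the 6 times were compared without a cosine, Gstm7 alone was called, against 2.94% of all genes.

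**Figure D4:**
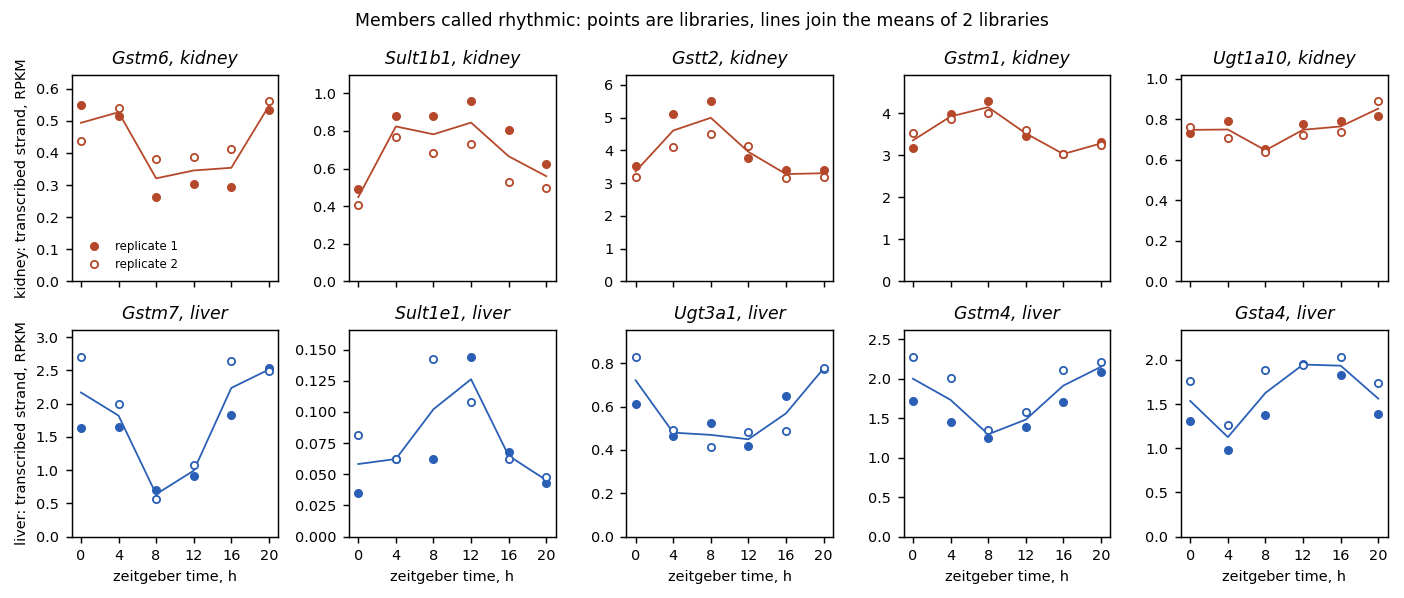
TS repair in RPKM (vertical axes from 0) by zeitgeber time for the 5 kidney members (top, red) and 5 liver members (bottom, blue) called rhythmic; filled and open points are the 2 libraries of a time and lines join their means. Gstt2 and Gstm1 are highest at ZT8 in kidney, and Gstm7 and Gstm4 are lowest at ZT8 in liver.

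The fitted liver peaks of 4 of the 7 mu-class genes fell within 1 h of each other: Gstm7 at ZT 21.0, Gstm4 at 20.9, and Gstm3 and Gstm6 at 20.5. Gstm3 (amplitude 0.24 ± 0.09, adjusted p = 0.194) and Gstm6 (0.46 ± 0.13, adjusted p = 0.0583) were not called by the edgeR fit without a block. Gstm6 was called by edgeR with the replicate block (adjusted p = 0.0143) or with the length trend removed (0.0469), and by DESeq2 (0.0127). Gstm3 was called by none of these. The other 3 genes of the array, not called either, had their liver peaks at ZT 22.2 (Gstm5, 0.30 ± 0.11, adjusted p = 0.185), ZT 0.82 (Gstm2, 0.18 ± 0.10, adjusted p = 0.443) and ZT 8.7 (Gstm1, 0.14 ± 0.04, adjusted p = 0.0995). Of the 12 liver members with an unadjusted p under 0.05, 5 peaked between ZT 18 and 24 and 5 between ZT 6 and 12. In kidney these were 4 and 7 of 12, the 4 being Gstm6 and 3 Ugt genes. Peak hours were not counted over all genes, so it is open if these splits are particular to the members.

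A difference of rhythm between the tissues was called in 0 of 52 members by edgeR, against 0.958% of 19625 genes, and 8 members had an unadjusted p under 0.05. DESeq2 and the replicate block also called 0. The lowest adjusted p was 0.162, for Ugt1a10, and the median amplitude of the difference was 0.26 in log2. The members called rhythmic in only 1 tissue are thus not shown to differ between them. Without the liver ZT0 replicate 2 library 2 members were called, against 1.78% of all genes.

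The genes around these enzymes were followed in 6 lists. Their counts stand beside 31.7% higher in liver and 42.2% higher in kidney over all 19625 genes, and were not tested against these shares. UDP-glucuronate supply differed little, with all 4 genes higher in liver, the largest gap being that of Gusb (log2 -0.38 ± 0.06), the lysosomal enzyme that cleaves glucuronides. For PAPS supply and sulfate 4 of 7 genes were higher in liver and 2 in kidney, among them Slc13a1 (5.06 ± 0.12), which takes sulfate up in the proximal tubule. The 2 PAPS synthases were opposed, Papss1 higher in kidney (0.89 ± 0.04) and Papss2 higher in liver (-0.57 ± 0.06). Of 12 genes of glutathione supply and use 7 were higher in kidney and 4 in liver, led by Ggt1 (5.70 ± 0.12) and Dpep1 (3.26 ± 0.07), which break glutathione and its conjugates down at the brush border, and Nat8 (1.13 ± 0.14), which acetylates cysteine conjugates. The median log2 difference was 0.20 over that list, against 0.07 over all genes.

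Other conjugating enzymes were higher in liver in 8 of 10 cases and in kidney in 1, with Nnmt, nicotinamide methyltransferase, at -3.76 ± 0.07, Nat1 at -1.41 ± 0.41 and the epoxide hydrolase Ephx1 at -1.27 ± 0.06. Of 11 exporters and organic anion carriers 6 were higher in liver and 4 in kidney, against 31.7% and 42.2% of all genes. The liver uptake carrier Slco1b2 stood at -5.51 ± 0.15, and the kidney carriers Slc22a6 and Slc22a8 at 5.45 ± 0.13 and 4.40 ± 0.11. Of 15 regulators 10 were higher in liver, among them the receptors Nr1i3 (CAR, -3.44 ± 0.10) and Nr1i2 (PXR, -1.31 ± 0.08) and Hnf4a (-0.81 ± 0.04), and 2 in kidney. Slc22a6 stands in the list of proximal tubule markers as well.

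Of the 15 regulators 5 were called rhythmic in kidney and 6 in liver, and of the 11 exporters and carriers 4 and 3, where the shares over all genes were 15.0% and 16.6%. The other 4 lists together had 3 and 6 such calls among 33 genes. The PAR bZIP factors Dbp, Tef and Hlf, which bind the D-box, were called in both tissues. Dbp had amplitudes of 0.93 ± 0.07 in kidney (peak at ZT 10.2) and 1.30 ± 0.18 in liver (peak at ZT 11.0). Papss1 was called in kidney (0.16 ± 0.03, ZT 18.4) and in liver (0.43 ± 0.06, ZT 19.5), and Ugdh, which makes UDP-glucuronate, in liver (0.16 ± 0.04, ZT 8.9). Of the 6 lists only Rxra, the partner of several nuclear receptors, had a rhythm that differed between the tissues (amplitude of the difference 0.27 ± 0.05). Whether these rhythms bear on those of the conjugation genes was not tested.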

How the data were processed

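The deposited tables hold, per the file headers, whole-number read counts and RPKM values by gene row and time, with separate tables for each tissue, strand and replicate. The submitters' processing notes name the build mm10; for aligner and read counter, the tools were not given in the sources used. The authors' kidney counts drawn down to a fixed depth served as an alternative. Row starts, 0-based in the tables, are printed 1-based. Rows without a symbol (2.76% of TS reads) were left out.

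The quasi-likelihood test of edgeR 4.0.16 (glmQLFit, glmQLFTest; R 4.3.3) was run on the counts, with filterByExpr and TMM scaling, over all rows with 1 symbol, Benjamini-Hochberg adjusted, threshold 0.05. Kidney minus liver is the mean over the 6 times, with 1 mean per tissue and time. TS was set against NTS with each library as a block that has a single size. Rhythms are the joint test of cosine and sine of a 24 h period, with SE the amplitude over the square root of 2 F. DESeq2 1.42.0 and the other alternatives are in the closing section. The fits were tested on simulated counts. Levels are deposited RPKM values, and precision follows from the read totals given above.

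Deviations of same-numbered kidney libraries correlated at 0.121 to 0.366 in all 15 pairs of times, so the replicate numbers pair the kidney libraries. In liver 6 of 15 pairs exceeded 0.1. No pair of libraries of a time held the same values. Members and lists were chosen with earlier results of these data known. Genes named with values were, among those called with a mean of at least 20 TS reads, up to 4 largest tissue differences each way per family and all rhythmic members. The 3 largest and 3 smallest strand ratios per tissue were named whether called or not, among members with a mean of at least 20 reads over both strands. Up to 3 genes per list were named, and further members were named after their values were seen. Promoter windows come from RefSeq (GRCm38.p6), which held 45 of the 52.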

Additional observations from a re-analysis of the deposited data

Results flagged for a closer look

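The TS/NTS ratio differed between kidney and liver in 37 of 52 members, by the interaction of strand and tissue (edgeR, adjusted p under 0.05, all 24 libraries). The share over all 20502 genes was 56.9%, and the distance of the members from it was not tested. Among the genes named for their strand ratio, the log2 ratio was lower in kidney by 1.14 for Sult1a1 (-1.14 ± 0.12), and it stood at -1.08 ± 0.29 for Gstp2, -0.90 ± 0.15 for Gsta4, -0.82 ± 0.23 for Sult1e1 and -0.73 ± 0.15 for Ugt3a2. It was higher in kidney for Sult2b1 (1.24 ± 0.12), Sult2a6 (0.77 ± 0.30), Sult6b1 (0.47 ± 0.18) and Gsta3 (0.32 ± 0.12). Sult6b1 lost its call without kidney ZT0 replicate 2, liver ZT16 replicate 1 or liver ZT20 replicate 1, and with DESeq2 (adjusted p = 0.0550). Gsta3 lost it without liver ZT16 replicate 2 (adjusted p = 0.0542). In kidney Sult1e1 rests on a mean of 10.2 TS and 12.2 NTS reads and Sult2a6 on 8.92 and 4.83.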

How the results depend on the processing

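Over the alternatives run for single members, 1220 values were counted as unchanged, 68 were no longer past the threshold, 1 came to pass it and 1 reversed. Values without an adjusted p, and changes of direction where neither fit passed, were counted as unchanged. No direction was compared for any difference among times. The reversed value, Sult2a6 in liver, went from a log2 strand ratio of 0.09 to -2.10 when each strand was scaled on its own. That scaling gave 17 higher and 27 lower kidney members, against 46.2% and 48.1% of all genes, and 32 and 15 liver members, against 47.6% and 46.8%. The ratio was then higher in kidney in 15 members and higher in liver in 26, against 29.8% and 26.4% of all genes. The same scaling moved the median log2 ratio of all genes from 2.19 to -0.07 for kidney and from 2.24 to 0.02 for liver. Library totals in place of TMM, chosen after seeing the data, gave 13 NTS members higher in kidney and left the TS counts at 13 and 34. Kidney rhythms numbered 11 with the replicate block, 8 with DESeq2, 2 with the length trend removed and 0 for any difference among times (9 of 50 at an unadjusted p under 0.05). The shares over all genes were 25.4%, 24.6%, 9.44% and 1.04%, in the same order. Liver rhythms numbered 1 for any difference among times, against 2.94% of all genes. Leaving out each library in turn gave 12 to 13 members higher in kidney and 34 to 36 in liver on the TS, and 7 to 8 and 31 to 34 on the NTS. It gave 42 to 45 higher and 3 to 3 lower kidney strand ratios, 46 to 47 and 2 to 2 in liver, and 8 to 11 and 27 to 29 ratios higher in kidney and in liver. Rhythms ranged from 0 to 8 in kidney, 2 to 8 in liver and 0 to 2 for the difference. The replicate block changed no other count by more than 1.5 times. The cause of these changes was not tested. Depth limits Ugt2b1 and Sult2a7 in kidney, with a mean of 3.42 TS reads in the former.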
